A study of Oryza sativa with 6 samples.

Results

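Rice genes for enzymes that hydrolyse starch and maltose, 10 of the 55986 rows of the expression table, were followed in maturing grain of a wild type line and a mutant. They were chosen by locus ID and comprise 7 alpha-amylase genes (RAmy1A, RAmy1C, RAmy2A, RAmy3A, RAmy3B, RAmy3D and RAmy3E), 2 beta-amylase genes and 1 alpha-glucosidase gene. All 10 had a row. The wild type was the rice line Zhenong 34 and the mutant was named sg34. Grains of both lines were labelled as of the mature period, and 3 libraries were sequenced per line. The labels give neither the mutated gene nor the origin of the replicates, so a p-value speaks only of the scatter among these libraries, which could be technical. Whole grains hold several tissues, and fewer cells of a type cannot be told apart from less RNA per cell.

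Starch is broken down in a sequence of steps. Alpha-amylases cut inside the glucan chains, beta-amylases release maltose from chain ends, and alpha-glucosidases release glucose from maltose and short glucans. In cereal seeds alpha-amylases are best known from germination, when gibberellin switches on RAmy1A and its relatives in the aleurone and the scutellum, while RAmy3D and RAmy3E are known in rice for their induction by sugar starvation.

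The deposited values are TPM, a level corrected for transcript length that sums to nearly the same total in each library and keeps no sequencing depth. For tests, TPM were divided by factors from trimmed means of log ratios (TMM), which ran from 0.702 in mutant replicate 1 to 1.66 in wild type replicate 1, and compared as log2(TPM + 1) with limma across all tested genes. Differences are given as sg34 minus wild type on that scale, which understates changes of low genes. The scaling matters here: the median difference of all tested genes was -0.01 with it and -0.43 without it. Wild type replicate 1 stood apart. The summed level of 6 starchy endosperm markers (the glutelin genes GluA1, GluA2, GluB2 and GluB4, the granule-bound starch synthase gene Wx and a globulin gene) was 27374 TPM in that library and 87526 to 134202 TPM in the other 5. The glutelin genes and the globulin gene were each lowest in that library. On deposited TPM Wx was not, at 2790 TPM in wild type replicate 1 and 2140 TPM in wild type replicate 3. By line, the sum was 27374, 108895 and 87526 TPM across the wild type and 134202, 124915 and 112725 TPM across the mutant. Each mutant sum thus lay above each wild type sum on deposited TPM, and the lines overlapped after scaling. Of the 6 markers 4 did not overlap on deposited and 1, Wx, on scaled values, against 21.6% and 23.6% of all tested genes. By limma 0 of them passed an adjusted p of 0.05. The sum of 6 embryo and aleurone markers was 1068 TPM in wild type replicate 1 and 3564 to 6649 TPM in the others. Each of these markers was above 0 in every library, although the dehydrin gene Rab16A was at only 0.16 TPM in wild type replicate 1. The 5 green tissue markers were mixed. The rubisco small subunit gene LOC_Os12g17600 was at 84.5 TPM in that library and 2.33 to 10.4 TPM in the others, a second such gene and PsbS were also highest there, and both genes for chlorophyll a-b binding proteins were highest in mutant replicate 2. Their sum was 135.7 TPM in wild type replicate 1 and 6.78 to 78.0 TPM in the others. In wild type replicate 1 it rested largely on LOC_Os12g17600, which gave only 10.2 of 78.0 TPM in mutant replicate 2. The part of these tissues in the levels below was not tested.

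The alpha-glucosidase gene held most of the transcript of the group, and RAmy1A, RAmy1C and RAmy2A stayed under 1 TPM in every library. The alpha-glucosidase gene LOC_Os06g46284 ranked first among the 10 members in 6 of 6 libraries and made up 77.1% to 96.9% of their summed TPM. The 7 alpha-amylase genes together made up 2.96% to 22.6%, and the 2 beta-amylase genes 0.161% to 2.90%. Only 4 of the 10 members reached the filter of at least 1 TPM in at least 3 libraries. None of these 4 differed between the lines past an adjusted p of 0.05 by limma, against 3.76% of all tested genes, and 0 of the 4 had an unadjusted p under 0.05, against 17.3% of all tested genes. The values of the lines overlapped in each of these 4 on deposited and on scaled values. Among all tested genes 21.6% did not overlap on deposited and 23.6% on scaled values. The lines also overlapped in the members below the filter, which were under 1 TPM in most libraries. A further fit weighted each library by its scatter about the mean of its line, with more weight for less scatter. There 2 of the 4 tested members passed, against 23.1% of all tested genes. They were LOC_Os10g32810, a beta-amylase gene, with adjusted p = 0.0195, and alpha-glucosidase with adjusted p = 0.0482 by limma.

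**Figure D1:**
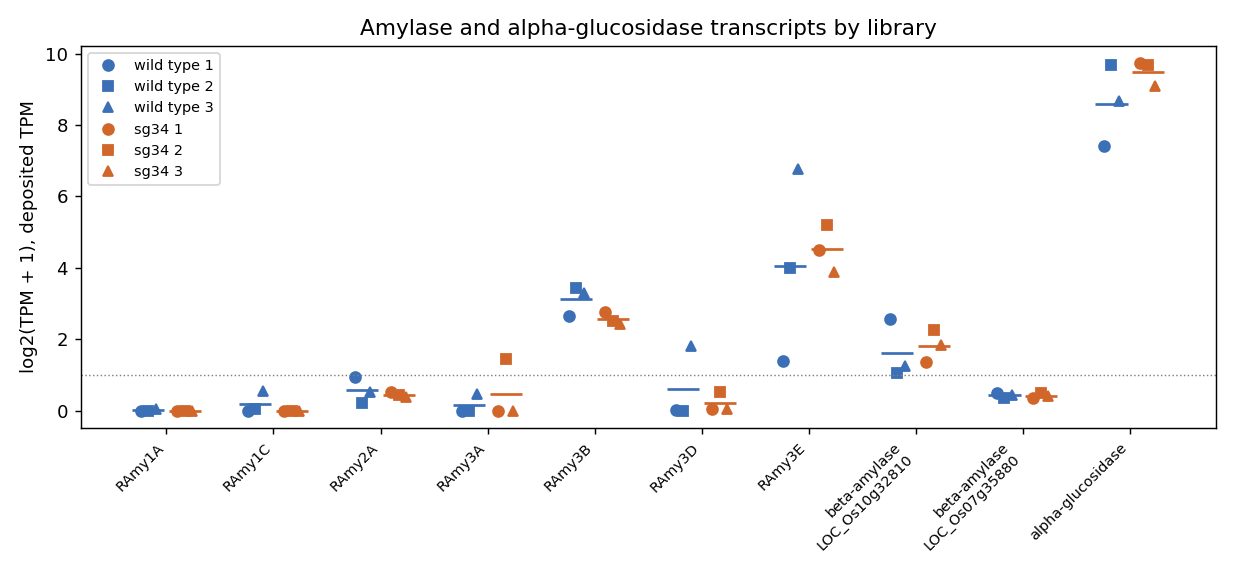
Deposited TPM of the 10 genes in each library, as log2(TPM + 1), with wild type in blue, sg34 in orange, 1 marker shape per replicate number and a short line at the mean of each line. The dotted line marks 1 TPM, and 4 genes lie above it in all 6 libraries.

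The alpha-glucosidase gene LOC_Os06g46284, on chromosome 6, is described in the deposited annotation as a probable maltase of glycosyl hydrolase family 31. Its level was 168.8, 811.4 and 409.5 TPM in replicates 1, 2 and 3 of the wild type and 845.9, 810.9 and 545.5 TPM in replicates 1, 2 and 3 of the mutant. Wild type replicate 1 was lowest, and wild type replicate 2 lay at the level of mutant replicate 2, so the lines overlapped. The means were 463.2 ± 324.7 TPM across the wild type and 734.1 ± 164.3 TPM across the mutant (SD, n = 3). The log2 difference was 1.43 ± 0.81 (SE, 95% interval -0.50 to 3.37), with limma adjusted p = 0.406. It was 0.91 without rescaling (adjusted p = 0.397), 0.62 without wild type replicate 1 (adjusted p = 0.653) and 2.21 without wild type replicate 2 (adjusted p = 0.155). The deposited log2 level of this gene itself ran with minus the log2 scaling factor over the 6 libraries (Pearson's r = 0.967, a description). Dividing by the factors raised its difference, as it raised the median difference of all tested genes from -0.43 to -0.01. The interval holds both no difference and a rise of several fold.

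On deposited TPM the glutelin and globulin markers were lowest in the same library as this gene, while Wx was not. Glutelin GluA1 was at 4333 TPM in wild type replicate 1 and at 28725 to 52722 TPM in the other libraries, and the alpha-glucosidase level was 0.0390 of the GluA1 level in wild type replicate 1 and 0.0127 to 0.0229 of it elsewhere. Alpha-glucosidase was thus less low in that library than GluA1. The row LOC_Os06g46340, which carries the same description as LOC_Os06g46284 and was looked up after its values were seen, was at 0.25 to 1.93 TPM.

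By the rule for likeness, the genes whose scaled log2 values followed alpha-glucosidase most closely over the 6 libraries, among 6931 other genes with a mean of at least 10 TPM, were LOC_Os02g50840, LOC_Os10g04980 and LOC_Os04g55260. Their Pearson correlations, given as a description over 6 libraries that share the same scaling factors, were 0.999, 0.998 and 0.998, and 400 genes had one above 0.95. The deposited level of LOC_Os02g50840 ran only from 24.9 to 28.3 TPM, so its scaled values follow the factors almost alone. On deposited TPM the closest were LOC_Os08g01530, LOC_Os01g62190, described as the zinc finger protein ZAT7, and LOC_Os06g33680, at 0.994, 0.993 and 0.993, and 60 genes had one above 0.95. LOC_Os08g01530 had 2.35, 17.4 and 8.15 TPM in the wild type libraries and 22.5, 21.0 and 13.5 TPM across the mutant libraries. The 2 scales thus named different genes.

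RAmy3E was the highest of the 7 alpha-amylase members in 5 of 6 libraries, all but wild type replicate 1, and had the widest range of the members detected in every library. RAmy3E (LOC_Os08g36900) encodes a secreted alpha-amylase of the sugar-starvation class. Its level was 1.63, 14.8 and 107.0 TPM in replicates 1, 2 and 3 of the wild type and 21.7, 35.6 and 13.9 TPM in replicates 1, 2 and 3 of the mutant. The wild type thus held both the lowest and the highest library, 65.7-fold apart, and all mutant values lay between them. The means were 41.2 ± 57.4 TPM across the wild type and 23.7 ± 11.0 TPM across the mutant (SD, n = 3). The log2 difference was 0.90 ± 1.29 (SE, 95% interval -2.18 to 3.98), with limma adjusted p = 0.738, or 0.49 without rescaling (adjusted p = 0.794). The mean TPM was higher in the wild type while the log2 difference was above 0, since wild type replicate 3 weighs more in a mean of TPM and wild type replicate 1 more in a mean of logs. Leaving out wild type replicate 1 gave -0.54 and leaving out wild type replicate 3 gave 2.17, with adjusted p of 0.771 and 0.406.

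RAmy3D and RAmy3A, further secreted alpha-amylases of the same subfamily, were seen mainly in the libraries where RAmy3E was high. RAmy3D (LOC_Os08g36910), whose locus number is next to that of RAmy3E on chromosome 8, had 2.53 TPM in wild type replicate 3 and 0.44 TPM in mutant replicate 2, and 0 to 0.04 TPM in the other 4 libraries. RAmy3A (LOC_Os09g28400) had 1.71 TPM in mutant replicate 2 and 0.38 TPM in wild type replicate 3 and was listed at 0 in the other 4. Wild type replicate 3 and mutant replicate 2 were the highest pair of libraries for RAmy3A, RAmy3D and RAmy3E alike, on deposited and on scaled values. Among all tested genes this pair was highest for 3.51% on scaled values and 2.59% on deposited values. Of these 3 genes only RAmy3E was tested, so that among tested members the pair was highest for 1 of 4, and RAmy3A and RAmy3D lie outside the genes those shares cover. The pattern was picked after the values were seen and carries no test. The abscisic acid and drought responsive dehydrin gene Rab16A, an embryo and aleurone marker, had the same highest pair, at 260.2 TPM in wild type replicate 3 and 250.0 TPM in mutant replicate 2 against 0.16 to 95.9 TPM in the other libraries. Of the 6 embryo and aleurone markers 1 had this pair highest on scaled values and 2 on deposited values.

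**Figure D2:**
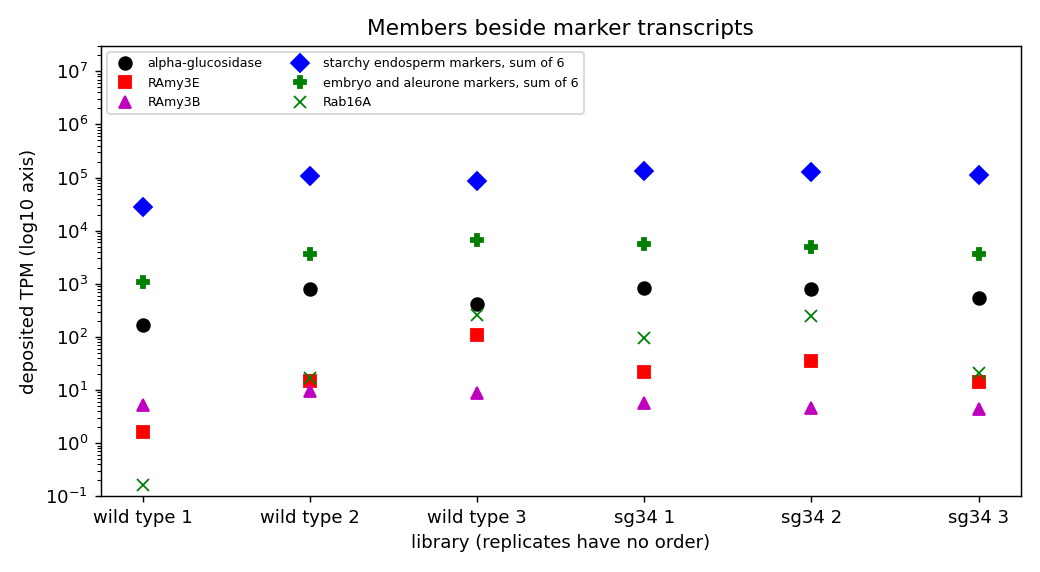
Deposited TPM by library on a log10 axis for alpha-glucosidase, RAmy3E, RAmy3B and the marker transcripts. Alpha-glucosidase and both marker sums are lowest in wild type replicate 1, and RAmy3E and Rab16A are highest in wild type replicate 3 and mutant replicate 2.

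RAmy3B was the steadier of the 2 alpha-amylase genes that reached the filter. RAmy3B (LOC_Os09g28420), on chromosome 9 near RAmy3A, is described as isozyme 3B in the deposited annotation, whose nearest protein match is isozyme 3C, so its isozyme name is uncertain. Its level was 5.26, 9.74 and 8.86 TPM in replicates 1, 2 and 3 of the wild type and 5.80, 4.65 and 4.42 TPM in replicates 1, 2 and 3 of the mutant. On deposited TPM the lines overlapped through wild type replicate 1 alone, since the other wild type values lay above each mutant value. On scaled values mutant replicate 1, at 8.26, also lay above wild type replicate 3, at 7.24. The means were 7.95 ± 2.37 TPM across the wild type and 4.96 ± 0.74 TPM across the mutant (SD, n = 3). After scaling the log2 difference was -0.12 ± 0.43 (SE, 95% interval -1.14 to 0.90, limma adjusted p = 0.901), and it was -0.56 without rescaling (adjusted p = 0.355). Its sign turned without wild type replicate 2 (0.24, adjusted p = 0.745) and without mutant replicate 3 (0.12, adjusted p = 0.912). The library in which RAmy3E was lowest was also the only one in which RAmy3B exceeded it: RAmy3B took 67.2% of the alpha-amylase TPM in wild type replicate 1 and 7.40% to 39.3% in the other libraries.

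RAmy1A, RAmy1C and RAmy2A stayed at or under 0.92 TPM in every library. RAmy1A (LOC_Os02g52710), the major alpha-amylase of germinating rice, was listed at 0 in 5 libraries and at 0.04 TPM in wild type replicate 3. RAmy1C (LOC_Os02g52700), beside it on chromosome 2, reached 0.04 TPM in replicate 2 and 0.46 TPM in replicate 3 of the wild type and was listed at 0 in the other 4 libraries. RAmy2A (LOC_Os06g49970) was low but present throughout, at 0.92, 0.17 and 0.45 TPM across the wild type and 0.44, 0.36 and 0.30 TPM across the mutant. Depth is unknown, so no detection limit can be set for the values at 0. These 3 genes, RAmy3A, RAmy3D and 1 beta-amylase gene did not reach the filter. When all rows above 0 were tested, these 6 genes had limma adjusted p between 0.598 and 0.804. In the deposited annotation 7 of 7 alpha-amylase genes have the catalytic and the C-terminal alpha-amylase domain, and 6, all but RAmy3E, also list a Glyco_hydro_70 domain. Whether neighbouring copies share reads was not measured here, so their single values are uncertain.

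Summed over the 7 alpha-amylase genes, the level was 7.83, 24.8 and 119.8 TPM in replicates 1, 2 and 3 of the wild type and 28.0, 42.8 and 18.6 TPM in replicates 1, 2 and 3 of the mutant. The wild type again held both extremes. The means were 50.8 ± 60.3 and 29.8 ± 12.2 TPM (SD, n = 3), and the log2 difference of scaled sums was 0.44 (two-sided exact permutation p = 0.8, where 0.1 is the smallest that 3 against 3 libraries allow). It was -0.05 without rescaling and -0.64 without wild type replicate 1; its sign turned with the scaling and with that library.

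The 2 beta-amylase members were low in both lines. LOC_Os10g32810, described as a chloroplastic beta-amylase 1 gene, had 4.87, 1.06 and 1.39 TPM in replicates 1, 2 and 3 of the wild type and 1.57, 3.80 and 2.58 TPM in replicates 1, 2 and 3 of the mutant. The highest and the lowest library were both wild type. The means were 2.44 ± 2.11 and 2.65 ± 1.12 TPM (SD, n = 3), with a log2 difference of 0.60 ± 0.34 (SE, 95% interval -0.21 to 1.41, limma adjusted p = 0.407), or 0.20 without rescaling (adjusted p = 0.775). LOC_Os07g35880, described as a beta-amylase gene, was even, at 0.40, 0.29 and 0.35 TPM across the wild type and 0.28, 0.40 and 0.33 TPM across the mutant. Both beta-amylase members are annotated to the plastid. Their sum had a log2 difference of 0.58 (two-sided exact permutation p = 0.3), or 0.17 without rescaling and 0.32 without mutant replicate 2.

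Most beta-amylase transcript came from relatives of these members. By the deposited beta-amylase domain, a selection made after values were seen, 11 rows belong to the family, and their summed level was 61.3, 65.8 and 99.6 TPM in replicates 1, 2 and 3 of the wild type and 50.2, 103.2 and 48.4 TPM in replicates 1, 2 and 3 of the mutant. Wild type replicate 3 and mutant replicate 2 were again the highest. Those libraries stood out through LOC_Os03g04770, described as a chloroplastic beta-amylase, with 37.2 and 21.8 TPM there and 2.20 to 10.5 TPM elsewhere, and through LOC_Os10g41550, described as beta-amylase 3, with 17.3 and 36.6 TPM there and 1.46 to 5.63 TPM elsewhere. The family sum had a log2 difference of 0.30 (two-sided exact permutation p = 0.7), or -0.22 without rescaling, -0.06 without wild type replicate 1 and -0.10 without mutant replicate 2. LOC_Os07g47120, described as an inactive beta-amylase 9, had 0.98, 16.6 and 6.06 TPM across the wild type and 16.6, 17.7 and 15.0 TPM across the mutant, with a log2 difference of 1.84 ± 0.85 (SE), where limma gave an adjusted p of 0.332. A second row of that description, LOC_Os03g22790, had 10.3, 23.5 and 14.1 TPM across the wild type and 5.98, 9.19 and 3.86 TPM across the mutant, with a log2 difference of -0.73 ± 0.58 (SE), where limma gave an adjusted p of 0.536, or -1.20 without rescaling. Its lines did not overlap on deposited TPM, as for 21.6% of all tested genes, and overlapped after scaling.

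**Figure D3:**
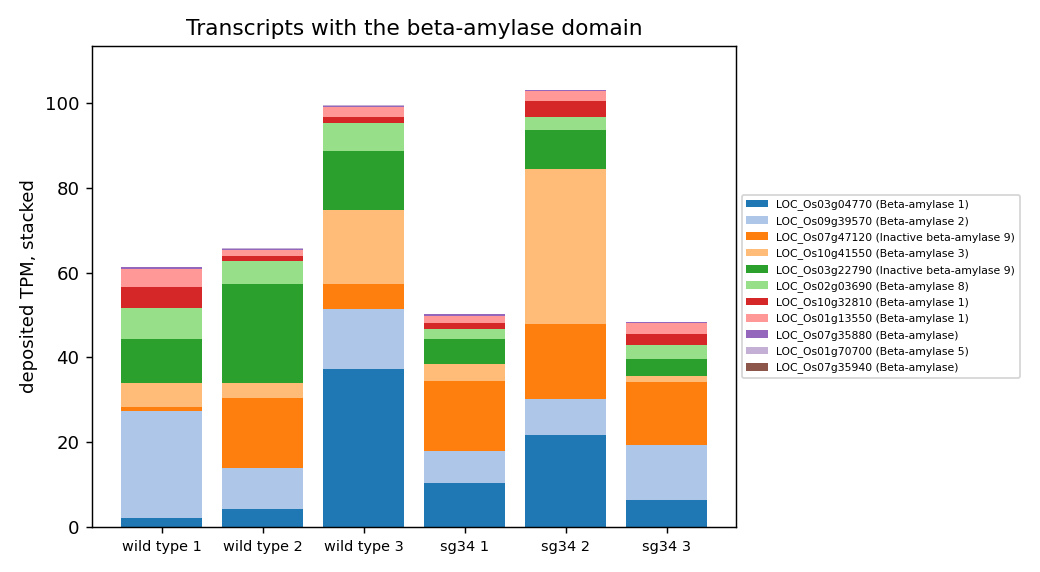
Deposited TPM of the 11 rows with a beta-amylase domain, stacked by library from 0. LOC_Os03g04770 and LOC_Os10g41550 widen the bars of wild type replicate 3 and mutant replicate 2, and the members LOC_Os10g32810 and LOC_Os07g35880 are thin bands throughout.

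Other genes of starch breakdown were examined as a list of 20, of which 19 had a row and 17 were tested. The list held further amylases, the debranching enzyme ISA3, disproportionating enzymes, phosphorylases, glucan kinases, a glucan phosphatase and a maltose exporter. Of the 17, 0 passed limma's adjusted p over all genes in either direction, against 3.76% of all tested genes, and 4 had an unadjusted p under 0.05, against 17.3%. The median log2 difference was 0.23, against -0.01 over all tested genes, or -0.15 against -0.43 without rescaling. By the rule, the 3 with the smallest p are described. The phosphoglucan, water dikinase gene PWD (LOC_Os12g20150), whose product phosphorylates starch ahead of its breakdown, had 1.60, 1.08 and 2.27 TPM across the wild type and 2.32, 2.36 and 2.64 TPM across the mutant. Its log2 difference was 0.75 ± 0.21 (SE), where limma gave an adjusted p of 0.124, or 0.40 without rescaling. The phosphoglucan phosphatase gene SEX4 (LOC_Os03g01750), which removes such phosphate, had 36.2, 37.1 and 29.1 TPM across the wild type and 40.0, 44.2 and 52.5 TPM across the mutant. Its log2 difference was 0.91 ± 0.29 (SE), with limma adjusted p = 0.173, or 0.40 without rescaling. Leaving out wild type replicate 2 brought it to 1.21 and an adjusted p of 0.0470, a threshold that 2% of tested genes passed in that fit. LOC_Os02g03690, described as beta-amylase 8, whose Arabidopsis namesake is a regulator with a DNA-binding domain, had 7.48, 5.43 and 6.53 TPM across the wild type and 2.28, 3.17 and 3.34 TPM across the mutant. Its log2 difference was -0.51 ± 0.19 (SE), where limma gave an adjusted p of 0.246, or -0.93 without rescaling. Over the list the lines did not overlap for 4 of 17 genes on deposited and 5 of 17 on scaled values, against 21.6% and 23.6% of all tested genes, and the 3 genes described, chosen by their p, are among them on both scales.

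Regulators of alpha-amylase expression and activity made a list of 10, of which 9 were tested and 0 passed in either direction by limma, against 3.76% of all tested genes, with 0 at an unadjusted p under 0.05, against 17.3%. The 3 with the smallest p were the gibberellin receptor gene GID1, the amylase and subtilisin inhibitor gene RASI and GAMYB, the transcription factor that activates alpha-amylase genes under gibberellin. GID1 (LOC_Os05g33730) had 13.1, 11.3 and 14.5 TPM across the wild type and 12.8, 12.3 and 13.5 TPM across the mutant. Its log2 difference was 0.48 ± 0.24 (SE), where limma gave an adjusted p of 0.370, or -0.0068 without rescaling. RASI (LOC_Os04g44470) had 192.5, 440.8 and 678.8 TPM across the wild type and 766.2, 534.1 and 487.7 TPM across the mutant, a log2 difference of 1.12 ± 0.67 (SE), where limma gave an adjusted p of 0.430. It was 0.60 without rescaling and 0.39 without wild type replicate 1, the lowest library. GAMYB (LOC_Os01g59660) had 19.5, 7.91 and 11.6 TPM across the wild type and 4.75, 6.92 and 10.2 TPM across the mutant, a log2 difference of -0.25 ± 0.20 (SE), where limma gave an adjusted p of 0.524, or -0.73 without rescaling. Leaving out 1 library at a time gave 0.28 to 0.63 for GID1 and -0.32 to -0.12 for GAMYB. GAMYB transcript was thus present in all 6 libraries, while RAmy1A and RAmy1C did not exceed 0.46 TPM in any.

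**Figure D4:**
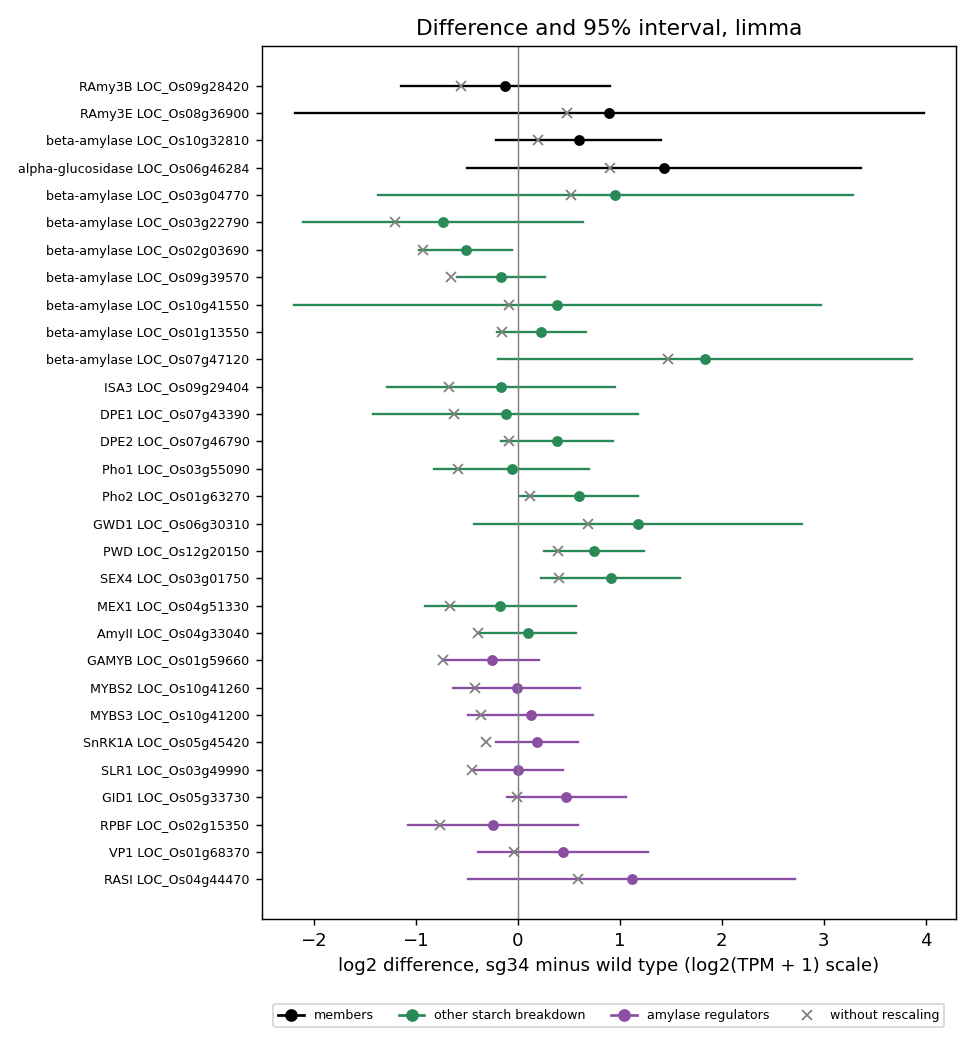
Log2 differences, sg34 minus wild type, with 95% intervals from limma for the 4 tested members (black), 17 other starch breakdown genes (green) and 9 regulators (purple). Grey crosses give the difference without rescaling and lie to the left of the scaled values; RAmy3E has the widest interval of the members, from -2.18 to 3.98.

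Transcripts described as inhibitors of alpha-amylase, picked by their deposited description after values were seen, had far higher levels than those of the 7 alpha-amylase members. Protein was not measured, and whether these products act on the rice enzymes was not tested. The 5 rows, RASI among them, summed to 3879, 22285 and 12691 TPM in replicates 1, 2 and 3 of the wild type and 23490, 18463 and 15199 TPM in replicates 1, 2 and 3 of the mutant, against at most 119.8 TPM for the 7 alpha-amylases. Like alpha-glucosidase, the sum was lowest in wild type replicate 1, and the lines overlapped. It rested largely on LOC_Os07g11630 and LOC_Os07g11650. LOC_Os07g12080 and LOC_Os07g12090 were instead lowest in mutant replicate 2, at 194.0 and 429.8 TPM. For LOC_Os07g12080 the lines did not overlap on deposited TPM, as for 21.6% of all tested genes, and overlapped after scaling.

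The other 2 rows with the C-terminal alpha-amylase domain were more even across libraries than RAmy3E. Selection by this domain was likewise made afterwards, but LOC_Os04g33040 was already a tested gene of the list of other starch breakdown genes. LOC_Os01g51754, described as the chloroplastic alpha-amylase 3, had 28.0, 20.6 and 19.1 TPM across the wild type and 18.0, 16.8 and 20.0 TPM across the mutant. LOC_Os04g33040, described as a probable alpha-amylase 2, had 25.8, 16.1 and 16.2 TPM across the wild type and 10.7, 14.9 and 17.8 TPM across the mutant. Their log2 differences were 0.22 ± 0.23 and 0.10 ± 0.20 (SE), with limma adjusted p of 0.630 and 0.813, and both signs turned without rescaling, to -0.28 and -0.39. In 3 libraries, wild type replicates 1 and 2 and mutant replicate 3, LOC_Os01g51754 exceeded RAmy3E.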

How the data were processed

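Messenger RNA from grains was sequenced in 3 libraries of each line, made with a SMARTER mRNA-Seq kit per the labels' protocols. The deposited table holds TPM made by the authors, with library totals of 967528 to 991476. The submitters' processing notes list Bowtie2, DESeq2 1.12.4, HISAT2 2.1.0, RSEM and StringTie without roles. They also list mm10, a mouse build at odds with the rice locus IDs; the rice build is not given in the sources used here. Mutant columns named sg31 to sg33 were matched to sg34 by replicate number, the only mutant. The 16917 rows reaching 1 TPM in 3 or more libraries were tested with limma 3.58.1 in R 4.3.3 on log2(TPM + 1), with a variance trend, unweighted TMM factors (30% of log ratios and 5% of mean levels trimmed) and Benjamini-Hochberg adjustment at 0.05 over all tested genes. The script was tested on simulated data with the same scatter for every gene and no outlying library. That check does not cover the uneven scatter of these libraries. Sums were compared by exact permutation over libraries. All 10 members are named; of other lists, genes past the threshold or else the 3 with the smallest p. Members and lists were chosen with earlier results of these data known. Pullulanase (LOC_Os04g08270) is not analysed here. Alternatives were scaling, filter, pseudocount, replicate block, trend, library weights and leaving out libraries. No sequences were used.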

Additional observations from a re-analysis of the deposited data

How the results depend on the processing

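The count of regulators past the threshold was 0 under each alternative run, and that of members under each except library weights. With library weights, which give mutant replicate 2 a weight of 8.97 and wild type replicate 1 one of 0.215, 23.1% of all tested genes passed, among them 2 members, LOC_Os10g32810 (1.27, adjusted p = 0.0195) and alpha-glucosidase (1.46, adjusted p = 0.0482), and 3 other starch breakdown genes, LOC_Os07g47120, PWD (0.59) and SEX4 (1.07). RAmy3E turned to -0.25 there. Leaving out 1 library gave 0 to 1 other starch breakdown genes, -0.53 to 0.24 for RAmy3B, -0.54 to 2.17 for RAmy3E, 0.33 to 0.85 for LOC_Os10g32810, 0.62 to 2.21 for alpha-glucosidase, -0.64 to 1.40 for the alpha-amylase sum and -0.10 to 0.68 for the beta-amylase family sum. Without rescaling GID1 was at -0.0068, the alpha-amylase sum at -0.048 and the family sum at -0.22. The cause of these shifts was not tested. Libraries with the same number were not treated as paired in the main fit. Their deviations from the means of the lines had correlations of -0.54, 0.003 and -0.37. Deviations of the 3 libraries of a line sum to 0, so these values cannot show whether the numbers mark pairs. With the replicate block 0 members passed, and adjusted p was 0.558 for alpha-glucosidase and 0.794 for RAmy3E. The filter at 5 TPM leaves out LOC_Os10g32810 and PWD, which have no value there. TPM keep no depth, so the precision of the low members is unknown.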
